A study of Bos taurus with 53 samples.

Results

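Day 14 bovine embryos from oocytes matured with a high level of palmitic acid were compared with themselves, extraembryonic tissue (EX) against embryonic disc (ED). The pairs are the 8 HIGH PA embryos for which both parts were sequenced, matched by recipient cow and embryo number, so that 16 of the 53 libraries of the series belong here. In HIGH PA the oocytes had been exposed during in vitro maturation to 150 µM palmitic acid with stearic acid at 28 µM and oleic acid at 21 µM in 0.45% ethanol. The medium used for comparison, BASAL, held palmitic acid at a physiological 23 µM with the same stearic acid, oleic acid and ethanol, and 12 of its embryos had both parts sequenced. Another medium, CONTROL, was without fatty acids or ethanol. Its 3 embryos with both parts sequenced (cow 813 embryos 1, 2 and 4) were all male and tubular. They were used in the plot of long against short genes and in alternative fits. Embryos 1 and 2 were also used in the check of genes on in some embryos and off in others. In all groups the oocytes were fertilised in vitro, and 8 blastocysts per recipient cow were transferred on day 7.7 and flushed on day 14. The HIGH PA pairs hold 4 ovoid and 4 tubular embryos, 7 male and 1 female (cow 72 embryo 1), from 4 cows. Cow 07 carried 3 of them (embryos 1, 3 and 5), cows 13 and 72 carried 2 each (embryos 1 and 2), and cow 813 carried 1 (embryo 3). The remaining HIGH PA samples, 2 extraembryonic samples without a disc and 2 embryos sequenced undissected, were not used. Among the BASAL pairs, cow 12 embryos 1 and 2, cow 13 embryo 1 and cow 813 embryos 3 and 4 were female, the rest male. Cow 07 embryo 2, cow 12 embryo 1 and cow 66 embryos 1 and 2 were ovoid, the rest tubular. Cows 12 and 66 carried pairs in BASAL and none in HIGH PA, so the media were not balanced for sex, shape or cow.

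At this stage the ruminant blastocyst is about to elongate. The disc holds the epiblast, which gives rise to the body of the calf and in which the primitive streak will form, and hypoblast cells lie beneath it and line the inside of the trophectoderm. The extraembryonic part is therefore trophectoderm with hypoblast, and it is the tissue that takes up nutrients from uterine fluid and secretes interferon tau, the signal that maintains pregnancy in cattle. Palmitic acid is the saturated fatty acid that rises in follicular fluid when a cow mobilises body fat.

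Reads in exons, counted per gene, are given as CPM, scaled to a library of 1000000 reads. CPM values and their ratios carry no further scaling, whereas fitted changes use TMM scaling, so they can differ. Statements on overlap and on the number of embryos higher outside rest on CPM. The discs held between 119116 and 4005676 reads (median 1860015) and the extraembryonic libraries between 3883850 and 19533821 (median 7985676), more in 8 of 8 pairs (exact sign-flip permutation test, two-sided, p = 0.00781, the smallest that 8 pairs allow). Intron reads took a smaller share in the extraembryonic library of 8 of 8 pairs (7.44% against 9.72% at the median, exact permutation p = 0.00781). The 10 genes with the most reads took a larger share there in 8 of 8 pairs (14.3% against 8.61% at the median, exact permutation p = 0.00781). A larger share for these genes lowers the CPM of the others in extraembryonic tissue. The labels give a different RNA kit for each tissue, so tissue and kit cannot be told apart. Lane nearly followed tissue too: per the column names all 8 discs were in lanes 1 and 2, and 7 of 8 extraembryonic libraries in lanes 3, 4 and 8. The disc of cow 72 embryo 1 was the shallowest, with 2568 genes reaching 10 reads against 6971 to 10963 in the other discs, and a value of 0 there says little.

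Several libraries stood apart in ways that bear on single results. In the extraembryonic libraries of cow 07 embryos 1 and 5, 898 of the 9922 genes tested were at least 2 times lower than in each of the other 6, and 9 were at least 2 times higher. These 898 genes had a median exon length of 2582 bases, against 2032 over all genes tested. In the discs of the same embryos the corresponding counts were 1 and 1. The median level of the 10% longest genes stood below that of the 10% shortest in these extraembryonic libraries (log2 difference -0.85 and -0.54) and above it in the other 6 (0.45 to 0.72). Both carried an extra mark "2" in their column names, as did cow 72 embryo 1, and both had the highest mitochondrial shares of the extraembryonic libraries (11% and 10.7% against 2.69% to 5.29%). In BASAL 3 of 12 paired extraembryonic libraries had long genes below short ones in the same way, at -0.33 to -1.32, and all 3 carried the mark as well. No paired library without the mark fell below 0. What sets these libraries apart was not tested. Of the 113 genes named, 8 lost their call between the tissues without both pairs: COX1, COX7A2, FZD5, GARS, HSD17B1, IRF7, TGFBR1 and TM4SF1.

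**Figure D1:**
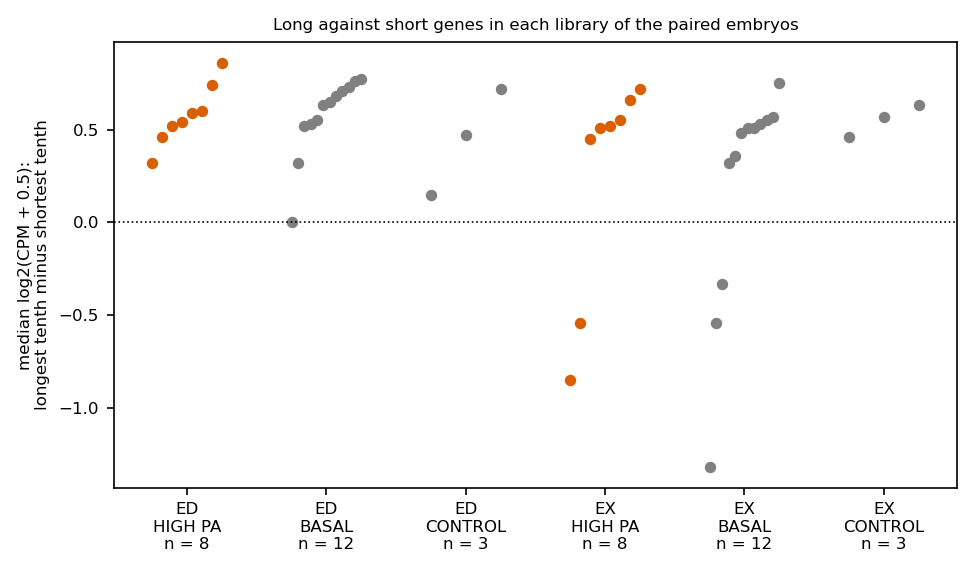
Median log2(CPM + 0.5) of the 10% longest genes minus that of the 10% shortest (y axis), for each library of the paired embryos by tissue and medium (x axis, HIGH PA in orange; BASAL, and CONTROL without fatty acids or solvent, in grey). The 8 HIGH PA discs lie above 0, whereas extraembryonic libraries of cow 07 embryos 1 and 5 lie at -0.85 and -0.54 and the other 6 at 0.45 to 0.72.

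The parts labelled cow 07 embryo 5 also differed in transcripts that matched elsewhere. Some genes were on in certain embryos and off in others, and 7 features with this pattern were found (over 8 CPM or under 0.8 CPM in at least 93% of libraries, both states in at least 3 libraries of each tissue). In 20 embryos of the series both libraries held at least 300000 reads. NPSR1, a neuropeptide receptor (chromosome 4, 62529856 to 62683822, UMD3.1), had 61 reads in the disc of this embryo (45.7 CPM) and 0 among the 12917633 of its extraembryonic library. ABCG5, a sterol transporter (chromosome 11, 26124238 to 26156411), had 100 reads in the disc (74.9 CPM) and 1 in the extraembryonic library. For ABCG5 both parts were alike in all 19 other embryos and for NPSR1 in 18, the exception being a BASAL embryo with 0 reads in the disc and 9 in the extraembryonic sample. Across the 7 features a single further mismatch was seen, an unnamed feature (ENSBTAG00000015792) in cow 813 embryo 3 with 1 read in the disc and 207 in the extraembryonic library. Another unnamed feature (ENSBTAG00000001219) was neither on nor off in the disc of cow 07 embryo 1 (4.65 CPM, against 146 outside). At every feature other than NPSR1 and ABCG5 the parts of cow 07 embryo 5 were alike, both on or both off. NPSR1 and ABCG5 were chosen after their values were seen, and whether the parts labelled cow 07 embryo 5 came from the same embryo was not tested. Over all genes tested, the deviations of its disc and extraembryonic library from their tissue means had the lowest correlation of the 8 embryos (-0.26). Its disc matched the extraembryonic library of cow 07 embryo 3 best (0.25). That library held 858 reads of ABCG5 and 0 of NPSR1, and it correlated with its own disc by 0.36. The disc of cow 72 embryo 1 also matched another embryo best, cow 07 embryo 1 (0.17, against -0.03 with its own). Without the pair of cow 07 embryo 5, 2066 genes were called between the tissues, against 2046 with all 8 pairs.

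Extraembryonic tissue differed from the disc at 2046 of 9922 genes (20.6%) at an adjusted p under 0.05 (edgeR's quasi-likelihood test in which each embryo formed its own block, with Benjamini-Hochberg adjustment over all genes tested). Fold changes are given as log2 of EX over ED, so that negative values mean lower in extraembryonic tissue. Of the called genes 1248 fell (12.6% of those tested) and 798 rose (8.04%). The sizes were uneven: the median was -1.50 among genes that fell and 0.81 among those that rose, and 416 against 13 called genes changed by at least 4-fold. When the test itself required a change over 2-fold, 444 genes were called lower (4.47%) and 13 higher (0.131%). Discs held 38 genes with at least 50 reads that had 0 reads in all 8 extraembryonic libraries, and the reverse was seen for 2 genes, although the extraembryonic libraries were deeper. In bulk samples such as these, fewer cells of a type and less RNA per cell cannot be told apart. With 1 pair left out at a time the calls ran from 1384 without cow 13 embryo 2 to 2255 without cow 72 embryo 1. The 798 that rose became 420 without cow 13 embryo 2, 464 without cow 813 embryo 3 and 510 without cow 07 embryo 1, and the counts that fell were 964, 986 and 1089.

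SOX2, a factor that keeps epiblast cells pluripotent (chromosome 1, 85933322 to 85934782, UMD3.1), ranged from 3.1 to 53.3 CPM in the discs (median 15.2) and was at 0 in 7 extraembryonic libraries and at 0.356 CPM in the other, that of cow 72 embryo 1. Over the pooled reads (225 against 2) its level was 529.9 times higher in discs, with an interval of 145 to 4402 that covers counting error only, since reads are not independent molecules, and leaves out the spread between embryos. The tissues did not overlap, and the fitted change was -8.36 (SE 0.565, adjusted p = 2.13e-07). EOMES, a T-box factor of the forming streak (chromosome 22, 2112409 to 2117440), ranged from 3.67 to 92.4 CPM in discs (median 20.5) against a single read in the 8 extraembryonic libraries. NNAT, an imprinted gene for a small membrane protein (chromosome 13, 67118489 to 67120879), ranged from 108 to 1029 CPM in discs (median 585) and from 0.121 to 1.29 in extraembryonic tissue, a change of -9.80 (SE 0.426, adjusted p = 2.77e-09). For SOX2, EOMES and NNAT every disc lay above every extraembryonic library.

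Of 15 epiblast genes measured, 12 passed the filter on low counts, and 8 of these fell and 0 rose (median -2.28 over the 12, beside 0.03 over all genes tested). A gene that passes only through the tissue in which it is high had to differ, so such counts describe the lists and do not test them. Each list count is to be read beside the shares over all genes tested, 12.6% lower and 8.04% higher. OTX2, a homeobox factor of epiblast and anterior ectoderm, had a disc median of 32.1 CPM and an extraembryonic median of 0.569 (change -5.19, SE 0.632). SALL1, a zinc finger factor, kept a low extraembryonic level, with 4.03 to 18 CPM there and 23.7 to 50.4 in discs (-2.02, SE 0.232). Of 23 streak and mesoderm genes 7 passed the filter and 6 fell (median -1.45). HAND1, a factor of extraembryonic mesoderm, ranged from 20.3 to 240.3 CPM in discs and from 0.257 to 12.6 in extraembryonic tissue (-4.20, SE 0.586), and MSX1, a homeobox gene responsive to BMP, changed by -4.12 (SE 0.357). The streak gene T (brachyury), chosen after its values were seen, was left out by the filter. It had 0 reads in all 8 extraembryonic libraries and 0.564 to 71 CPM in discs, at least 575-fold higher over the pooled reads (floor of 3 reads over the group). Its disc level was at or under 2.53 CPM in the 3 embryos of cow 07 and at or above 16.8 CPM in the other 5. Of 5 tested neural and anterior ectoderm genes 3 fell, among them CDH2, the adhesion molecule N-cadherin (disc median 159 CPM, extraembryonic 23.8), and CRABP2, a retinoic acid carrier (44.3 against 3.85).

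**Figure D2:**
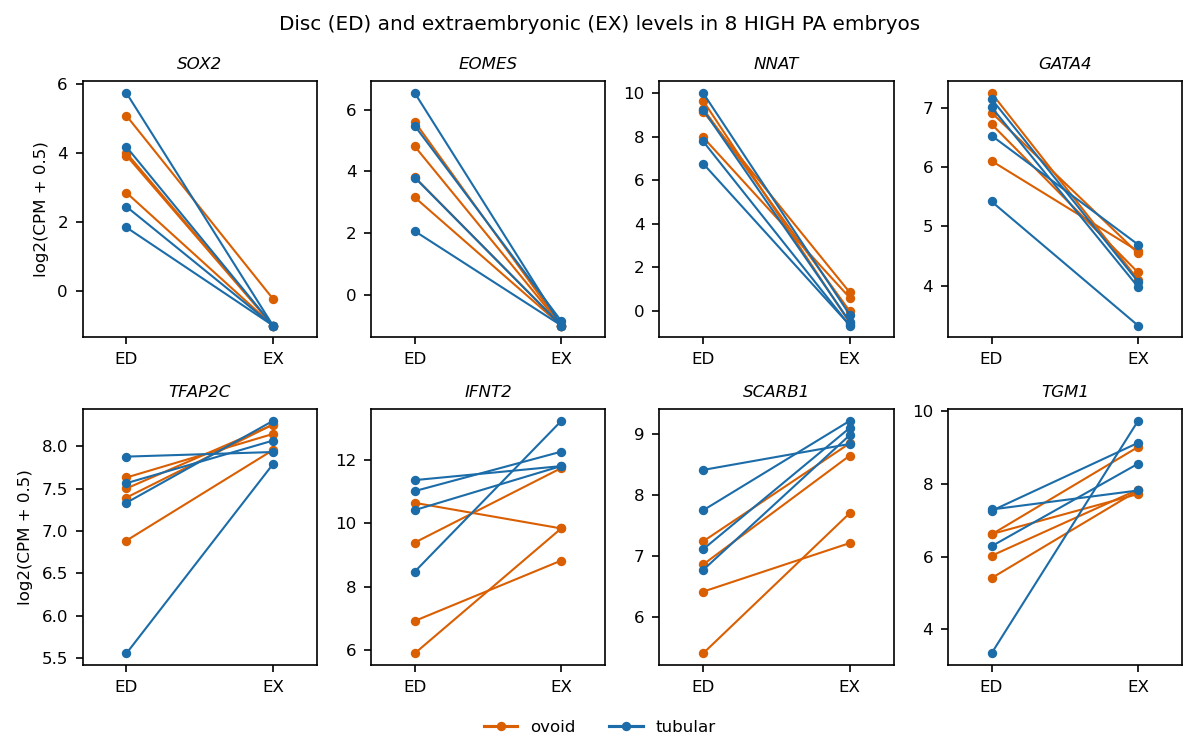
Levels as log2(CPM + 0.5) (y axis) in the disc (ED) and extraembryonic library (EX) of each of 8 HIGH PA embryos, 1 line per embryo, ovoid in orange and tubular in blue, for 4 genes that fell and 4 that rose. SOX2, EOMES, NNAT and GATA4 separate the tissues in every embryo, whereas levels of TFAP2C, IFNT2 and SCARB1 overlap between tissues and the lines differ in slope.

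The discs differed from each other along the same genes. Of the 444 genes lower in extraembryonic tissue by over 2-fold, 300 (67.6%) had their lowest disc value in cow 07 embryo 3 and 281 (63.3%) their highest in cow 813 embryo 3. Over all genes tested the corresponding shares were 12.3% and 22.8%. The disc of cow 07 embryo 3 held 3.1 CPM of SOX2, 3.67 of EOMES and 108 of NNAT, and that of cow 813 embryo 3 held 53.3, 92.4 and 1029. Genes higher in extraembryonic tissue had the opposite order. Of 798, the disc of cow 813 embryo 3 was the lowest for 416 (52.1%, against 14% over all genes) and the disc of cow 07 embryo 3 the highest for 309 (38.7%, against 9.57%). For TGM1, an epithelial transglutaminase, the disc of cow 813 embryo 3 had 9.61 CPM and that of cow 07 embryo 3 had 157. Summed trophectoderm factors came to 774 CPM in the disc of cow 813 embryo 3, 1371 in that of cow 13 embryo 2, and between 1531 and 1771 in the other 6, beside 1619 to 2094 in the extraembryonic libraries. Both discs are labelled tubular and male, that of cow 813 embryo 3 with 1352103 reads and that of cow 07 embryo 3 with 3544492. The part played by the share of trophectoderm in a dissected disc was not tested.

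**Figure D3:**
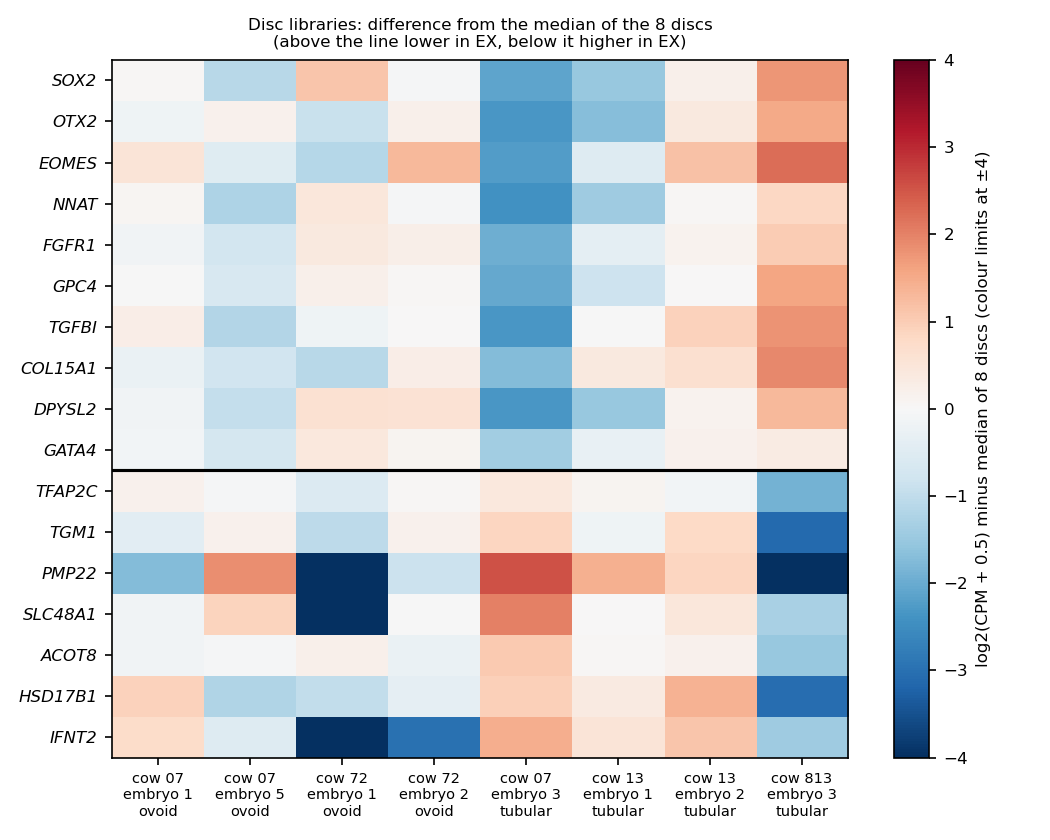
Difference of each HIGH PA disc from the median of the 8 discs, in log2(CPM + 0.5) (colour, with limits at ±4), for 10 genes that fell and 7 that rose in extraembryonic tissue (rows), by embryo (columns). Cow 07 embryo 3 is blue across the genes that fell and red across most of those that rose, and cow 813 embryo 3 shows the reverse.

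Genes of the NODAL, BMP, FGF and WNT pathways were mostly lower outside the disc. Of 22 tested NODAL and BMP genes 15 fell and 0 rose (median -1.36). Ligand, nuclear partner, target and inhibitor were all among them. NODAL, the ligand that patterns the epiblast (chromosome 28, 26794898 to 26801991), ranged from 13 to 91 CPM in discs, was at 0 in 6 extraembryonic libraries and reached 0.772 CPM in the highest (-8.79, SE 0.564, adjusted p = 1.31e-07). FOXH1, which binds SMADs downstream of NODAL, had a disc median of 54.8 CPM against 2.05, and ID1, a target of BMP signalling, 89.5 against 2.41. BAMBI, a decoy receptor, was less unequal (63.7 against 9.09 CPM, change -2.49, SE 0.247). The summed level of this list hardly separated the tissues, with 2092 to 3411 CPM in discs and 1242 to 4093 in extraembryonic libraries.

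Of 15 tested FGF and ERK feedback genes 11 fell and 0 rose (median -1.98), and their summed levels did not overlap (537 to 1645 CPM in discs, 177 to 304 outside). FGFR1, the receptor of the epiblast, ranged from 48.8 to 389 CPM in discs and from 5.17 to 13.5 in extraembryonic tissue (-4.13, SE 0.325, adjusted p = 9.11e-07). The receptor FGFR3 changed by -1.98 (SE 0.174). ETV5 and SPRY4, an ERK-responsive factor and a feedback inhibitor, had disc medians of 74.3 and 32.6 CPM and extraembryonic medians of 4.41 and 3.37. Of 21 tested WNT genes 11 fell and 2 rose (median -1.31). SFRP1, a secreted WNT antagonist, ranged from 18.1 to 342 CPM in discs and from 0.129 to 2.63 outside, without overlap (-6.67, SE 0.266, adjusted p = 1.04e-09). The receptor FZD2, the co-receptor LRP5 and the amplifier RSPO3 changed by -3.57, -2.02 and -2.64. In the IGF axis 3 of 9 tested genes fell, and 5 did without cow 72 embryo 1. They were IGF2, the imprinted growth factor (disc median 32 CPM, extraembryonic 4.59), its binding protein IGFBP2 (161 against 0.903) and the RNA-binding protein IGF2BP2 (9.77 against 0.451).

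Of 27 hypoblast and yolk sac genes measured, 18 passed the filter, 14 of them fell and 1 rose (median -1.89). GATA4, an endoderm factor (chromosome 8, 7478855 to 7527262), ranged from 42.3 to 151 CPM in discs and from 9.57 to 25.4 in extraembryonic tissue, without overlap (-2.24, SE 0.217, adjusted p = 6.77e-06). SOX17, another endoderm factor, was closer (21 to 50.4 against 6.28 to 11.9 CPM, change -1.35, SE 0.221). Genes for lipid and vitamin export were among those that fell: APOA2, an apolipoprotein, had a disc median of 114 CPM against 8.04, and MTTP, which loads lipid onto lipoproteins, 98.8 against 6.59. RBP4, the retinol carrier, overlapped between the tissues, and in cow 07 embryo 5 it was higher outside (67.4 CPM in the disc, 115 in extraembryonic tissue). BMP6 ranged from 3.75 to 87.3 CPM in discs and was at 0 in 3 extraembryonic libraries (-6.68, SE 0.692). Summed over the list, however, the tissues overlapped, with 6045 to 9649.5 CPM in discs and 3725 to 10253 outside. Of 8 tested retinoid genes 4 fell, including ALDH1A1, which oxidises retinal (-1.73), and 0 rose.

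Matrix and cell surface genes gave some of the largest differences. Of 20 tested collagen and basement membrane genes 13 fell and 0 rose (median -1.06). TGFBI, an adhesion protein of the matrix, ranged from 33.3 to 587 CPM in discs and reached at most 0.322 outside (5 reads in all), and it had the lowest p of the genes tested (-11.05, SE 0.369, adjusted p = 5.47e-10). COL15A1, a basement membrane collagen, had 714 reads in discs and 1 in extraembryonic tissue, a pooled ratio of 3363 with an interval of 602 to 133019, again for counting error only. COL5A2, a fibrillar collagen, had 264 reads against 2. FREM2, which anchors epithelia to the basement membrane, had disc values of 8.24 to 81.4 CPM and was at most 1.07 CPM outside. MMP2 and MMP14, which cleave matrix proteins, had disc medians of 139 and 68.5 CPM and extraembryonic medians of 0.398 and 10.3. The protease inhibitor A2M had 1143 reads in discs and 3 outside. HAS2, which makes hyaluronan, had 571 and 3. Of the 19 tested proteases and inhibitors 7 fell and 3 rose (median -0.32).

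The cell surface genes with this pattern were not limited to matrix. GPC4, a heparan sulfate proteoglycan, ranged from 31 to 389.8 CPM in discs with 20 reads outside (-8.83, SE 0.426), and PTPRZ1, a receptor phosphatase, had 769 reads in discs and 1 outside. VIM, an intermediate filament of mesenchymal cells, ranged from 5.08 to 39.2 CPM in discs and was at most 0.356 outside. GJA1, a gap junction protein, had disc values of 148 to 311 CPM and extraembryonic values of 15.7 to 52.8. SLC7A3, a carrier of cationic amino acids, had 895 reads in discs and 0 outside, at least 1405-fold higher in discs over the pooled reads. CD74, an invariant chain of immune cells chosen after its values were seen, was at 0.846 to 42.9 CPM in discs and at most 0.533 outside. Its list of 22 maternal blood and immune genes summed to 15.2 to 75.6 CPM in discs and 9.38 to 38.3 outside, of 4 tested 0 were called, and PTPRC, LYZ, C1QA and HBB held between 0 and 3 reads over all discs and 0 outside. Of the 16 markers of endometrium and endothelium 1 passed the filter and was not called.

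Among lists with at least 5 tested members, trophectoderm factors had the highest share that rose, and the discs carried them too. Of 27 measured, 22 passed the filter, 11 rose and 3 fell (median 0.67). TFAP2C, a regulator of trophoblast identity, ranged from 46.6 to 235 CPM in discs and from 221 to 315 in extraembryonic tissue, was higher outside in 8 of 8 embryos and overlapped between tissues (1.07, SE 0.216, adjusted p = 0.00309). ETS2, which activates the interferon tau promoter, was higher in 8 of 8 (94.3 against 135 CPM at the medians, change 1.02, SE 0.145), as was TFEB, a regulator of lysosome genes (13.1 against 33). PPARG, the lipid-sensing nuclear receptor, was higher in 6 of 8, with 0 to 11.5 CPM in discs and 1.03 to 45.5 outside (1.66, SE 0.478, adjusted p = 0.0248). Its call was lost without cow 13 embryo 1, cow 13 embryo 2 or cow 813 embryo 3. ID2, a BMP target placed in this list, went the other way and did not overlap (126 to 319 CPM in discs, 36.6 to 59.6 outside, change -1.60, SE 0.187). The 11 members that rose became 6 without cow 13 embryo 1 or without cow 13 embryo 2, and 3 without the pairs whose extraembryonic library was run in lane 8 (cow 13 embryo 2 and cow 813 embryo 3).

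Interferon tau was higher outside the disc in most embryos and varied widely between them. IFNT2 (chromosome 8, 22607642 to 22634001), a member of a family of near-identical copies among which reads may be divided, ranged from 58.8 to 2654 CPM in discs (median 1025) and from 454 to 9739.8 in extraembryonic tissue (median 3534). It was higher outside in 7 of 8 embryos, with a change of 1.98 (SE 0.491, adjusted p = 0.0112), and in cow 07 embryo 1 the disc held 1610.3 CPM against 918. The extraembryonic levels of the ovoid embryos were 454, 918, 921 and 3459 CPM, and those of the tubular embryos were 3610.0, 3616, 4958 and 9739.8. The nearest values of the shapes were thus close (3459 and 3610.0). Shape was nearly confounded with cow, and the difference was not tested on these levels. In discs the levels were 58.8 to 1610.3 CPM in ovoid and 356 to 2654 in tubular embryos. The tissue call was lost without the pairs that had a library under 1000000 reads, both from cow 72, at a change of 1.66. VEGFA, an angiogenic factor, rose by a log2 change of 1.03 (SE 0.314, adjusted p = 0.0323), and its call was lost without any of cow 07 embryo 1, cow 13 embryo 1, cow 13 embryo 2, cow 72 embryo 2 or cow 813 embryo 3. Of 8 tested interferon response genes 1 rose and 1 fell, close to the shares over all genes. They were IRF7, a mediator of the response (12.7 against 25 CPM), whose call was lost without the libraries low in long genes, and IFIT5 (16.8 against 4.9).

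The genes with the lowest p among those that rose included carriers, receptors and enzymes. ABCC2, which exports organic anions, ranged from 8.4 to 134 CPM in discs and from 77.2 to 229.7 in extraembryonic tissue and was higher in 8 of 8 embryos (1.88, SE 0.235, adjusted p = 6.55e-05). SCARB1, the receptor for high density lipoprotein (chromosome 17, 53180926 to 53273723), ranged from 42 to 340.2 CPM in discs and from 148 to 594 outside (1.77, SE 0.222). In cow 07 embryo 3 its levels were close (340.2 and 457 CPM), and in cow 813 embryo 3 they were far apart (138 and 548). SLC48A1, a heme carrier, was higher in 8 of 8 (26.3 against 120.3 CPM at the medians), as were ACOT8, a peroxisomal thioesterase (81 against 249), EMC8, a subunit of a membrane insertion complex (66.6 against 124), RCAN1, a regulator of calcineurin (30.2 against 128), and RIPK4, a kinase of epithelial differentiation (55.5 against 114).

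The largest changes upward were smaller than those downward and mostly overlapped. PMP22, a membrane protein of epithelia and myelin, ranged from 0 to 199 CPM in discs and from 85.2 to 348 outside (2.67, SE 0.579, adjusted p = 0.00493). TGM1 (chromosome 10, 20735502 to 20750260) was the exception without overlap, with 9.61 to 157 CPM in discs and 211 to 855 outside (2.37, SE 0.467). SLC27A6, a fatty acid carrier, ranged from 0 to 129 CPM in discs and from 0.257 to 619.5 outside (2.46, SE 0.63, adjusted p = 0.0134), and was higher outside in 7 of 8 embryos. SLCO2A1, a prostaglandin carrier, was higher in 8 of 8, with 2.49 to 7.41 CPM in 3 of the ovoid extraembryonic libraries and 94.2 and 103 in those of cow 13 embryo 2 and cow 813 embryo 3. TM4SF1, a tetraspanin-like membrane protein, changed by 2.35 (SE 0.696), and its call was lost without any 1 of cow 07 embryo 1, cow 13 embryo 1, cow 13 embryo 2, cow 72 embryo 2 or cow 813 embryo 3. HSD17B1, which makes oestradiol, changed by 1.66 (SE 0.49), and its call was lost without cow 13 embryo 1, cow 13 embryo 2 or cow 72 embryo 1.

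Genes of lipid handling divided between the tissues. Of 28 tested genes of fatty acid uptake and storage 6 rose and 7 fell (median 0.17). SCARB1 and SLC27A6 were among those that rose. Those that fell included FABP7, a fatty acid binding protein of neural cells (12.4 against 0.335 CPM), DGAT2, which makes triglyceride (14.1 against 0.872), and LPL, the lipoprotein lipase (13.7 against 1.21). Of 16 tested fatty acid synthesis genes 6 fell and 3 rose (median -0.17). SCD5, a desaturase, had 336 reads in discs and 3 outside, all 3 in cow 72 embryo 1. ME1, the malic enzyme, did not overlap between the tissues (39.7 to 75.4 against 5.48 to 16.2 CPM, change -2.56, SE 0.228), nor did ACLY, which supplies acetyl-CoA (277 to 639 against 124 to 239, change -0.90). Of 23 tested fatty acid oxidation genes 3 fell and 2 rose, shares close to those over all genes. HADHA, of the mitochondrial trifunctional protein, was a small and even difference (44.3 to 62.9 CPM in discs, 24 to 41.7 outside, change -0.66, SE 0.16). Without cow 07 embryo 5 there were 5 members of this list that fell, and without both libraries low in long genes there were 7.

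Of 28 tested genes of cholesterol synthesis and uptake 13 fell and 1 rose (median -0.53), and 8 fell without the pairs of lane 8. SQLE, the squalene epoxidase, ranged from 87.5 to 262 CPM in discs and from 33.9 to 73.9 outside without overlap (-1.38, SE 0.217, adjusted p = 0.000466). Of 16 tested genes of PPAR, RXR and their partners 4 fell and 1 rose, the former including RARG, a retinoic acid receptor (29.7 against 1.42 CPM).

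Of 17 tested amino acid transporters 8 fell, 0 rose and 9 were not called (median -0.69). Besides SLC7A3 those that fell included SLC7A8, a carrier of neutral amino acids (463 to 1545 CPM in discs, 149 to 243 outside, change -1.98, SE 0.215), its partner SLC3A2 (202 to 566 against 115 to 184) and the glutamine carrier SLC1A5 (102 to 386 against 45.5 to 98.9). In each the tissues did not overlap. Of 21 tested glycolysis and lactate genes 7 fell and 3 rose (median 0.16), and 3 fell without cow 13 embryo 2 and 4 without cow 813 embryo 3. The hexokinase HK1 (50.2 to 282 against 25 to 36.6 CPM), the phosphofructokinase PFKM and the lactate carrier SLC16A1 fell without overlap. PFKFB3, which raises glycolytic flux, was higher outside in 7 of 8 embryos (0.93, SE 0.202), the exception being cow 07 embryo 5 (168 CPM in the disc, 98.3 outside).

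De novo DNA methyltransferases were lower outside the disc. DNMT3B ranged from 250.0 to 1164 CPM in discs and from 35.8 to 185 outside without overlap (-2.54, SE 0.282, adjusted p = 2.35e-05), and DNMT3A had disc and extraembryonic medians of 59.9 and 12.4. HELLS, a remodeller needed for methylation, changed by -1.35 (SE 0.21). Over the list of 18 tested genes 4 fell and 2 rose (12.6% and 8.04% over all genes tested). KDM1B, a histone demethylase, was among the latter, with 0 to 16.6 CPM in discs (median 7.57) and 7.25 to 26.9 outside (median 20), a change of 1.17 (SE 0.367, adjusted p = 0.0362). Its call was lost without any 1 of cow 13 embryo 1, cow 13 embryo 2, cow 72 embryo 1, cow 72 embryo 2 or cow 813 embryo 3. In BASAL embryos its change was 0.35 (SE 0.188, 10 pairs). The difference between the media, from a fit with all 12 BASAL pairs, was 0.96 (SE 0.443, adjusted p = 1). Of 11 tested imprinted genes 6 fell and 1 rose, among them PEG10 (35 against 1.13 CPM) and MEST (7.94 against 0.276), both expressed from the paternal allele.

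Oxidative phosphorylation had 53 tested nuclear genes, of which 9 rose and 0 fell (median 0.32), with 48 above 0. Over all 9922 genes tested 8.04% rose, 12.6% fell and 5212 lay above 0. NDUFA1, a complex I subunit, was higher in 8 of 8 embryos (39 against 52.5 CPM, change 0.70, SE 0.162), and COX7A2, of complex IV, in 7 of 8 (144 against 189.6). Without the libraries low in long genes 2 members rose, without cow 07 embryo 1, cow 13 embryo 2 or cow 813 embryo 3 there were 3 each, and without cow 07 embryo 5 or cow 13 embryo 1 there were 4 each. The mitochondrially encoded COX1 had 49339 and 41842 CPM in the extraembryonic libraries of cow 07 embryos 1 and 5, and 9782 to 18961 in the other 6, which overlapped the discs (6919.6 to 20930.3). Its change of 0.95 (SE 0.315, adjusted p = 0.0467) passed with all 8 pairs and was 0.56 and not called without those 2. The call was also lost without any 1 of cow 07 embryo 1, cow 07 embryo 3, cow 07 embryo 5, cow 72 embryo 1, cow 72 embryo 2 or cow 813 embryo 3. The unfolded protein response list had 26 tested members, of which 9 rose and 1 fell (median 0.42), including CRELD2, an endoplasmic reticulum chaperone (92.4 against 162 CPM), and PPP1R15A, which restores translation after stress (86.4 against 146). The 9 became 3 without cow 13 embryo 2 or cow 813 embryo 3, 4 without cow 07 embryo 1, and 5 without cow 07 embryo 5 or cow 72 embryo 2.

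Lysosome genes moved in both directions, with 9 of 24 rising and 3 falling. Without cow 13 embryo 2, or without the libraries low in long genes, 5 rose. LAMP1, a lysosomal membrane protein, was higher outside in 7 of 8 embryos (0.84, SE 0.164). LIPA, the lysosomal lipase, fell without overlap (51.1 to 419.8 CPM in discs, 7.65 to 24.5 outside, change -3.16, SE 0.281), as did the folate receptor FOLR1 (29.9 to 88 against 2.51 to 25.5). Of 30 tested junction and keratin genes 10 rose and 4 fell (median 0.36), and 6 rose without cow 13 embryo 2 or cow 813 embryo 3. ITGB4, an integrin of hemidesmosomes, was among those that fell (17.9 against 3.73 CPM). Of 34 tested cell cycle genes 4 rose and 3 fell, close to the shares over all genes. CCND2, a cyclin of the early G1 phase, was higher outside in 8 of 8 embryos (22.4 to 62.1 CPM in discs, 33.8 to 113 outside, change 1.36, SE 0.225), and TOP2A, a topoisomerase of dividing cells, was lower in 7 of 8 (-1.14, SE 0.224). Of the members that rose 1 remained called without cow 07 embryo 1, and likewise without cow 13 embryo 1, cow 13 embryo 2, cow 72 embryo 2 or cow 813 embryo 3.

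**Figure D4:**
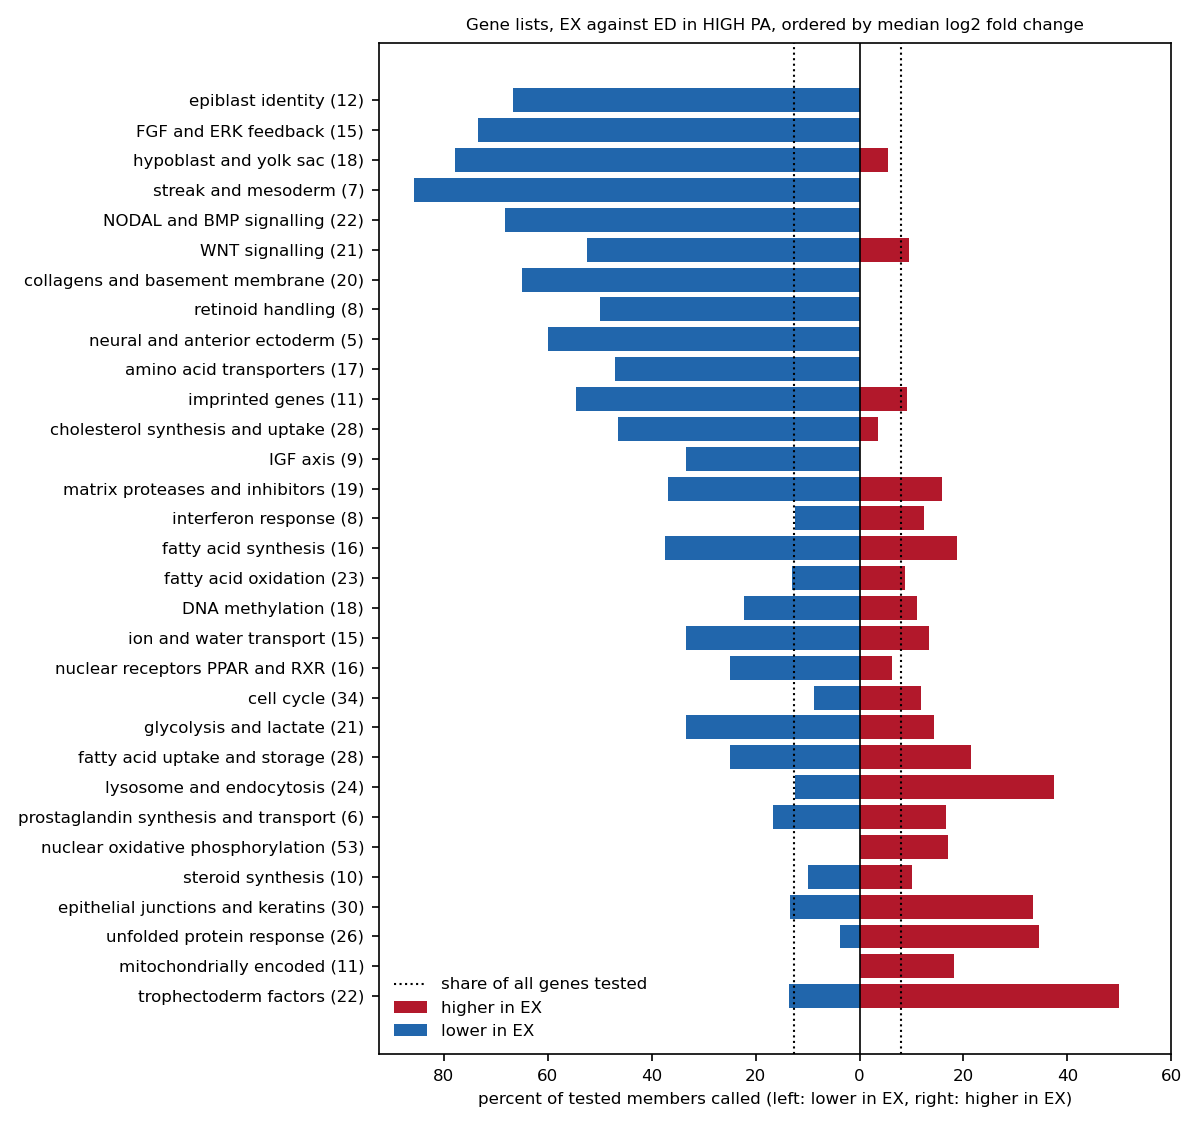
Percent of the tested members of each gene list called lower (blue, to the left) or higher (red, to the right) in extraembryonic tissue of HIGH PA embryos, with the number tested in brackets, ordered by median log2 fold change. Only lists with at least 5 tested members are drawn, and the dotted lines mark the shares over all 9922 genes tested, 12.6% lower and 8.04% higher.

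The difference between the tissues was steady across embryos for some genes and not for others. Among called genes with at least 20 CPM on average in the higher tissue, the smallest spread of the log2 ratio per embryo belonged to small rises: GARS, the glycyl-tRNA synthetase, ran from 0.06 to 0.30 (SD 0.09), MTCH2, of the outer mitochondrial membrane, from 0.17 to 0.55, and RER1, a Golgi sorting receptor, from 0.19 to 0.63. The largest spread belonged to genes with 0 reads in a disc or with low levels in the libraries of cow 07 embryos 1 and 5. SLC27A6 ran from -2.47 in cow 72 embryo 2 to 7.53 in cow 813 embryo 3. TGFBR1, a receptor of the TGF beta family, had 1.93 and 2.17 CPM in the extraembryonic libraries of cow 07 embryos 1 and 5 and 22.3 to 28.8 in the other 6. PRKAB2, a subunit of the energy sensor AMPK, had 0.483 and 1.24 CPM there and 4.5 to 14.9 in the others. Both were called lower in extraembryonic tissue with all 8 pairs (-1.59 and -2.18). Without the libraries low in long genes TGFBR1 changed by -0.92 and was no longer called, whereas PRKAB2 changed by -1.55 and was called. TGFBR1 also lost its call without any 1 of cow 07 embryo 1, cow 13 embryo 1, cow 13 embryo 2, cow 72 embryo 2 or cow 813 embryo 3, and GARS did so without any 1 of cow 07 embryo 1, cow 07 embryo 5, cow 13 embryo 1, cow 13 embryo 2 or cow 813 embryo 3.

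Whether the tissue difference in HIGH PA differed from that in BASAL was tested as the interaction of tissue and medium over 8 and 12 embryos. Of 11028 genes 0 were called by edgeR or by DESeq2, and 192 (1.74%) and 230 had an unadjusted p under 0.05. Exact p-values would put a share of 0.05 there if nothing differed. Both tests fell short of that share, and why was not tested. For a gene with the median SE the 95% interval of the difference reached 0.59 to either side on the log2 scale. Smaller differences could not be resolved for such a gene. That interval is for a single gene without adjustment, and larger differences could also be missed. In simulated counts with known changes, the same test called 35.8% of 2-fold and 80.3% of 4-fold differences between the media. Over the 9788 genes tested in both media the log2 fold changes had a Pearson r of 0.958 and a Spearman rho of 0.88 across genes, which share libraries and are not independent. The BASAL values are from the 10 embryos left after setting aside cow 66 embryo 2, whose library labelled disc had, among 2500029 reads, 0 for each of NNAT, EOMES, NODAL and SOX2, and cow 72 embryo 2, whose disc held 6814 reads. Of the 2046 genes called in HIGH PA 1977 were tested in BASAL, 1975 had the same sign and 1837 were called with that sign. In BASAL 3856 of 9983 genes were called, from more embryos.

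**Figure D5:**
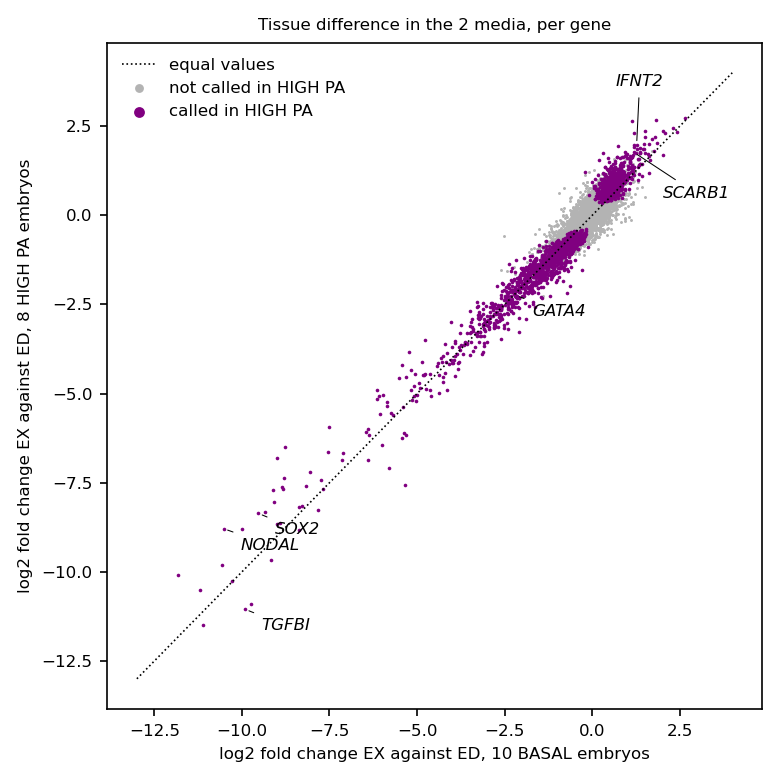
Log2 fold change of extraembryonic tissue against disc for each of 9788 genes in 10 BASAL embryos (x axis) and 8 HIGH PA embryos (y axis), with genes called in HIGH PA in purple and others in grey, and the dotted line at equal values. Most points follow the line, and SOX2 (-9.53 in BASAL, -8.36 in HIGH PA) and NODAL (-10.52, -8.79) lie above it. Extraembryonic levels of both genes were near 0 in HIGH PA, and 0 genes were called for a difference between the media.

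For single genes the values of the media are set side by side, and in each case named here the difference had an adjusted p of 1 (edgeR's quasi-likelihood test). The BASAL changes are from 10 pairs and the differences from the fit with all 12, so the differences are not plain subtractions of the changes. GATA4 changed by -2.24 in HIGH PA and -2.19 in BASAL, DNMT3B by -2.54 and -2.57, PPARG by 1.66 and 1.62, and EOMES by -9.66 and -9.16. IFNT2 changed by 1.98 and 1.27 (difference 0.67, SE 0.57) and SCARB1 by 1.77 and 1.19 (difference 0.62, SE 0.315). The genes of lowest unadjusted p included RHOBTB2, with 0 to 5.24 CPM in HIGH PA discs and 3.09 to 9.42 outside (1.23 in HIGH PA, -0.21 in BASAL, difference 1.43, SE 0.392, unadjusted p = 0.00121). Its call in HIGH PA was lost with counts summed per cow and without the pairs of lane 8. TBX20, a T-box factor, was at 0 to 7.4 CPM in discs and 0.967 to 13.6 outside (1.54 and 0.20, difference 1.44, SE 0.439, unadjusted p = 0.00316), and its HIGH PA call was lost without cow 13 embryo 1 or cow 13 embryo 2. DPYSL2, a cytoskeletal protein of growing axons, was lower outside in both media (-7.08 and -5.80, difference -1.23, SE 0.452), as was RND3 (-1.40 and -0.78, difference -0.67, SE 0.235). KIAA0513, left out by the filter in HIGH PA alone, had 10 of 15880372 reads in discs and 203 of 74800279 outside (difference 1.99, SE 0.519, unadjusted p = 0.000786). Without the pairs that held a library low in long genes (2 in HIGH PA, 3 in BASAL), 0 genes were called and 493 had an unadjusted p under 0.05.

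Ovoid and tubular embryos were compared for the tissue difference within HIGH PA. Shape and cow were nearly confounded, since both embryos of cow 72 were ovoid, those of cows 13 and 813 tubular, and cow 07 had embryos of both shapes. Of 10989 genes edgeR called 0, with 822 (7.48%) at an unadjusted p under 0.05, and DESeq2 called 1 with 1126 at that level. That gene was IGFBP4, an IGF binding protein, with a log2 difference of 3.29 and an adjusted p of 0.0388 by DESeq2 and 0.658 by edgeR. The interval for a gene with the median SE reached 1.00 to either side, without adjustment. In simulated counts the edgeR test called 1.49% of 2-fold and 36.4% of 4-fold differences between shapes, so most differences of these sizes would be missed. Leaving out cow 07 embryo 1, or the libraries low in long genes, called ABCG5, and testing with no filter called NPSR1, the genes that differed between the parts labelled cow 07 embryo 5.

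Among the genes of lowest p for shape, KMT2A, a histone methyltransferase, had log2 ratios per embryo of -4.01 to -1.91 in ovoid and -1.44 to 0.16 in tubular embryos (difference -2.62, SE 0.584, adjusted p = 0.658). FZD5, a WNT receptor, ran from -4.54 to -1.97 in ovoid embryos and from -2.01 to 0.34 in tubular ones. In both genes the most negative ovoid ratios were those of cow 07 embryos 1 and 5, whose extraembryonic libraries were low in long genes. Without those pairs the difference between shapes was -1.66 for KMT2A and -1.96 for FZD5, from -2.62 and -3.03. KANK1, a regulator of actin, was lower outside in 4 of 4 ovoid embryos (-0.81 to -0.44) and higher in 4 of 4 tubular ones (0.53 to 1.70), with a difference of -1.78 (SE 0.421, adjusted p = 0.658). PRSS35, a protease-like secreted protein, was lower outside in all 8, by log2 ratios of -4.08 to -2.17 in ovoid and -7.81 to -4.39 in tubular embryos. With 4 embryos a shape and 4 cows, none of these was called by edgeR with all 8 pairs.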

How the data were processed

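RNA of embryonic discs and extraembryonic tissue was sequenced as stranded mRNA libraries (paired reads of 50 bases, 12 libraries to a lane, per the labels' protocols). The deposited table gives whole-number counts per gene that the authors made for each library (total exon reads, unique exon reads, intron reads), with other columns such as exon length, for 24596 features, of which 18541 carry a symbol. The genome build is UMD3.1 and the authors' statistics used DESeq2 1.10.1, per the submitters' processing notes. The name of the aligner was not given in the sources used here.

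Exon counts of the 16 libraries were fitted as deposited with edgeR 4.0.16 (quasi-likelihood, TMM scaling, filterByExpr by tissue; limma 3.58.1, R 4.3.3), with embryo as a block, and p-values were adjusted by Benjamini and Hochberg over all genes tested, with 0.05 as the threshold. Differences between media and between shapes were tested as interactions with tissue. DESeq2 1.42.0 was an alternative. Ratios per embryo used a pseudocount of 0.5 CPM, without TMM scaling. Tables and figures were made with Python 3.11.15, pandas 2.3.3, numpy 2.4.6, scipy 1.17.1 and matplotlib 3.10.9, and the fits were tested on simulated data.

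The pairing comes from the labels, which give disc and extraembryonic sample the same cow and embryo number. Deviations from the tissue means correlated by 0.117 at the median within an embryo (-0.262 to 0.363, over 0.1 in 5 of 8) and by -0.0134 between embryos. The p-values measure the spread between embryos, and embryos of a cow shared a recipient. Named genes are, in each direction, the 10 genes with the lowest p and the 5 called genes that changed most (mean of at least 20 CPM in the higher tissue), up to 4 called members per list, the 5 of smallest and of largest spread between embryos, those of lowest p for each interaction, and SOX2, NODAL, GATA4, SOX17, PPARG, IFNT2 and NNAT. The embryos and all 34 gene lists were chosen with earlier results of these data known. Undissected embryos and unpaired samples were left out. Some genes are not reported here.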

Additional observations from a re-analysis of the deposited data

Results flagged for a closer look

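Log2 ratios of extraembryonic tissue to disc for 113 named genes, and the library measures of each tissue, made 125 groups of 8 values. In 10 of them, all gene ratios, 1 embryo lay far from the others by Dixon's criterion. Its rate of about 1 in 20 by chance holds for independent groups not chosen by spread. Some of these genes, such as TGFBR1 and PRKAB2, were named for their spread, so the 10 cannot be set against that rate. Cow 72 embryo 1, whose disc held 119116 reads, was the highest for TFEB (5.94, others 0.26 to 2.62), SLC48A1 (6.83, others 0.63 to 3.35), TGFBR1 (5.80, others -4.51 to -0.29), PRKAB2 (4.88, others -5.14 to -0.72) and RHOBTB2 (3.20, others 0.54 to 1.28), and its disc had 0 reads of each of these genes. It was the lowest for ID2 (-2.86, others -2.01 to -1.46).

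Cow 813 embryo 3 was the highest for TFAP2C (2.23, others 0.05 to 1.08), ACOT8 (3.15, others 0.57 to 1.79) and TGM1 (6.40, others 0.52 to 2.42). PFKFB3 was lower outside the disc in cow 07 embryo 5 (-0.77) and higher in the others (0.64 to 1.60).

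KANK1 differed in direction between shapes, with a mean log2 ratio of -0.62 in ovoid and 1.21 in tubular embryos (difference -1.83). This opposite direction was not tested on the ratios themselves, and the fitted interaction had an adjusted p of 0.658 by edgeR.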

How the results depend on the processing

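The count of 2046 genes called between the tissues (39% of them higher outside the disc) became 3894 with no filter on low counts, 457 when a change over 2-fold was required, 558 from the ovoid pairs alone and 937 without the pairs of lane 8 (22.5% higher), an alternative chosen after seeing the data, as were those without shallow pairs and without libraries low in long genes. The first tests more genes, the second uses a stricter test and the last 2 use fewer embryos. Leaving out other pairs gave 2349 without those that carry the extra mark and 2192 without those with a library low in long genes. Without the pairs that had a library under 1000000 reads the count was 2009. Why these counts differ was not tested. With 1 pair left out at a time it ran from 1384 to 2255. Without a replicate block 2147 genes were called, and DESeq2 called 2807. With counts summed per cow 2335 were called, 624 higher (26.7%) and 1711 lower. The share higher was 17.9% in ovoid pairs alone. For the difference between the media 0 genes were called under each of the 13 alternatives, with 115 to 493 genes at an unadjusted p under 0.05. For the shapes 1 gene was called by DESeq2, 1 with no filter, 1 without the libraries low in long genes, and 0 to 1 with 1 pair left out at a time. The cause was not tested. KANK1 changed by -0.39 in ovoid pairs alone, against 0.60 with all 8.

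Of 113 named genes 64 stayed on the same side of the threshold in every alternative compared, and of 2476 values compared 158 lost their call and 12 gained one. Of 748 counts of called list members 604 stayed within 1.5 times. The fit that required a change over 2-fold, with 13 genes called higher, was not among the alternatives in these comparisons. The blocked fit is the one reported throughout, and without it 6 named genes lost their call. Disc depth limits low transcripts: at 119116 reads, the disc of cow 72 embryo 1 gave 0 reads for genes found in the other discs.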
